A study of Danio rerio with 7 samples.

Results

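The mitotic genes were followed through the gene modules of zebrafish border zone cardiomyocytes, namely cdk1, cks2, ccnb1, cdca3, nusap1, ttk, cenph, bub1, smc4 and anln. They were looked up by symbol, ignoring case, in 8 deposited module lists and in the gene columns of 8 deposited annotation charts. All 10 lay in a module, out of 4449 genes in the modules in all. The genes had been chosen with their modules known, so their presence there is a description and no finding.

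The cells came from adult hearts of fish carrying the nppa:mCitrine reporter, taken 7 days after cryoinjury, a freezing injury of the ventricle. The 3 wildtype plates and 4 hmga1a mutant plates were both sorted by mCitrine with a single cell per well, and both groups carry the reporter. The labels call the cells border zone cardiomyocytes, the heart muscle next to the wound. The lists hold identifiers alone, so depth and the spread between plates are not known, and neither genotype can be compared with the other for any gene. The labels do not say what the hmga1a allele is or how many fish each plate stands for.

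Mitosis begins when the kinase CDK1, bound to a B-type cyclin, phosphorylates chromatin, lamina and cytoskeletal proteins. Condensin then compacts the chromosomes, the spindle captures them at kinetochores, and a checkpoint holds back anaphase until every kinetochore is attached. Cytokinesis divides the cell with a contractile ring. Adult zebrafish cardiomyocytes near a wound can re-enter this cycle, which makes these genes of interest in the border zone.

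Members of the entry, spindle and kinetochore stages were found in module 6, but CCNB1 of entry and bub1 of the kinetochore were not. The only members for chromosome compaction and cytokinesis, SMC4 and anln, were in other modules. Module 6 held 6 of the 10 genes, while 9.84% of all module genes lie there. The other 4 lay singly in modules 2, 3, 4 and 5, which hold 13.5%, 8.02%, 10.7% and 11.1% of the genes. Modules 1, 7 and 8, which hold 34.7%, 8.52% and 3.66% of the genes, held none of the 10. Since the members were picked from these modules, their shares are given beside the background with no test. Each list runs through its identifiers in ascending order more than once, and with the first such run alone 3 of the 10 genes were left, CDK1 and cks2 in module 6 and bub1 in module 4.

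**Figure D1:**
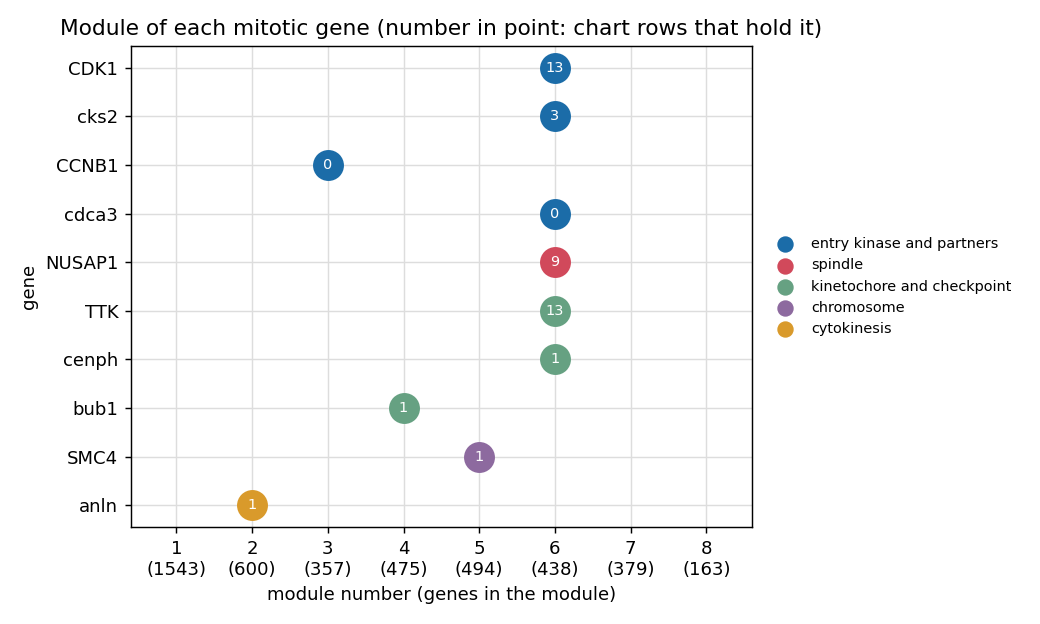
Module of each of the 10 mitotic genes (x axis, with the number of genes per module in brackets; y axis, gene; colour, stage), with the number of chart rows that hold the gene printed in each point. In module 6 stand 6 genes, and CCNB1, bub1, SMC4 and anln stand apart in modules 3, 4, 5 and 2.

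Among the genes of mitotic entry, CDK1 (ENSDARG00000087554), the kinase that starts mitosis, and cks2 (ENSDARG00000071410), a small subunit that docks the kinase to its substrates, shared module 6. The symbol cks2 stood on 2 identifiers, and the second, capitalised one (ENSDARG00000117089) lay in no module. With them lay cdca3 (ENSDARG00000070656), an F-box-like protein known from vertebrate cells for bringing about the destruction of the CDK1 inhibitor Wee1. CCNB1 (ENSDARG00000051923), the cyclin that activates CDK1, lay in module 3. The kinase and its cyclin were thus listed in different modules, though their proteins form a single complex.

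NUSAP1 (ENSDARG00000002403), which binds and bundles spindle microtubules, was in module 6. TTK (ENSDARG00000041361), the checkpoint kinase also called Mps1, and cenph (ENSDARG00000094892), a protein of the inner kinetochore, were there too. A further checkpoint kinase, bub1 (ENSDARG00000077029), was in module 4. Both TTK and bub1 act at unattached kinetochores, so the checkpoint kinases were divided between modules.

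SMC4 (ENSDARG00000038882), an ATPase subunit of condensin, was in module 5, the module that also holds hmga1a (ENSDARG00000028335), the gene mutated in the study. Anillin, anln (ENSDARG00000060917), which links actin, myosin and septins in the contractile ring, was in module 2.

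The annotation charts give, for each module and term, the number of module genes in the term and the authors' fold enrichment, which is the share of annotated module genes in the term over the share in a background. A term listed for a module is called a row here. Rows were called at a Benjamini-adjusted p under 0.05, as deposited. The charts hold 834 rows, and each has an unadjusted p of at most 0.1. A gene missing from a chart may therefore still carry an annotation whose row was not listed.

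Of the 834 rows, 24 held at least 1 of the 10 genes, and 21 of these were in the chart of module 6. In that chart 7 rows with a member were called, out of 9 called rows among 115 (7.83%). The rows with bub1, SMC4 and anln were 1 each, and none was called. The charts of modules 2 and 4 had 0% of their rows called, and that of module 5 had 5.75%. In the authors' deposited tables for modules 2 and 4, 51 of 92 and 43 of 78 rows have an unadjusted p under 0.05.

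CCNB1 and cdca3 were in no row at all. The chart of module 3 had 10.3% of its rows called. Genes in no row are common: they make up 39.2% of module 3 and 33.6% of module 6.

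**Figure D2:**
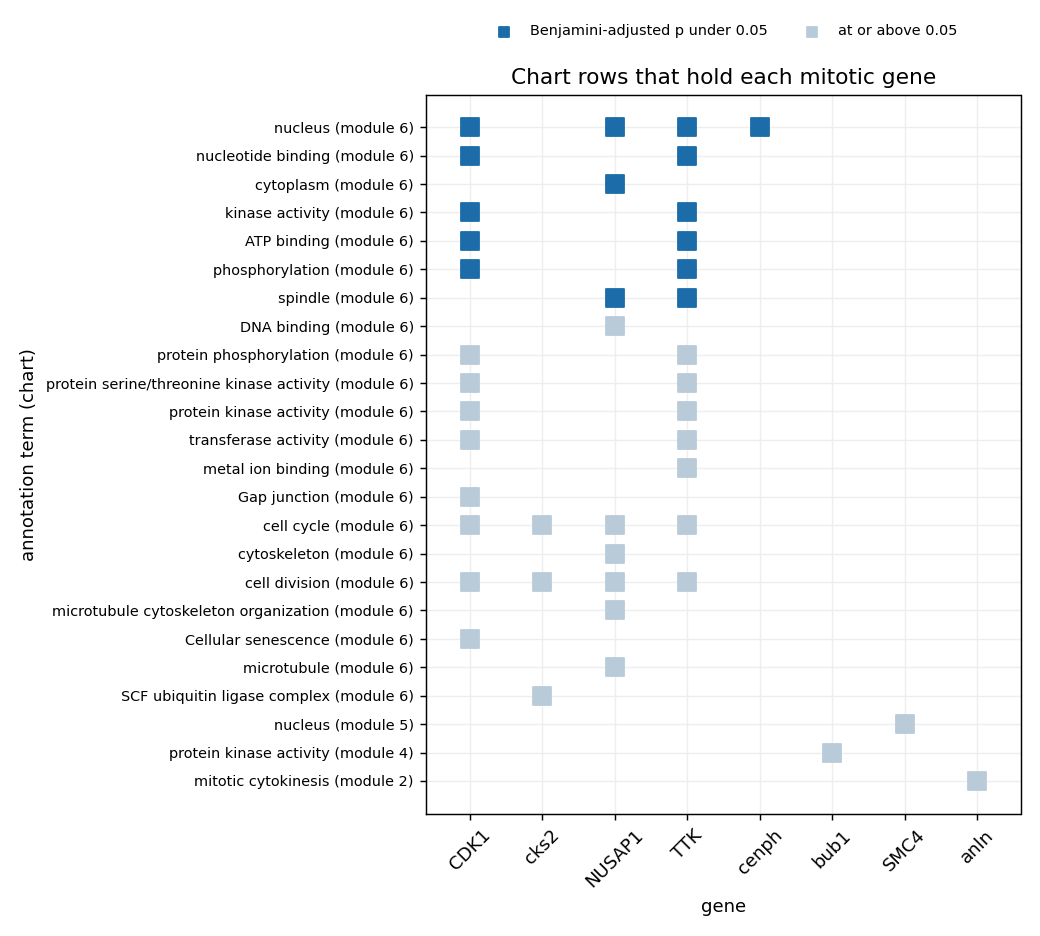
Chart rows (y axis, term with its module) that hold each mitotic gene (x axis), with dark squares for rows at a Benjamini-adjusted p under 0.05 in the authors' charts. CDK1 and TTK share a run of kinase rows, and cks2, CDK1, NUSAP1 and TTK meet in the rows cell cycle and cell division.

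Spindle annotation was strongest in module 6. In the authors' deposited table, the row spindle held 7 of 318 annotated module genes (2.2%) against 64 of 20439 in the background (0.313%), a fold enrichment of 7.03 with p = 0.000467 and a Benjamini-adjusted p of 0.0338. Its members of the mitotic set were TTK and NUSAP1. The other 5 were TUBG1, the gamma-tubulin that nucleates microtubules, MZT1, a small partner of the gamma-tubulin complex, CCSAP, a centriole and spindle protein, SPECC1L, which ties actin to microtubules, and cltca, a clathrin heavy chain. Clathrin is known for endocytosis and also binds the mitotic spindle.

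The rows cell cycle and cell division of module 6 held more of the set but were not called. The authors' deposited table gives cell cycle 11 of 332 genes (3.31%) against 270 of 20385 (1.32%), 2.5-fold, with p = 0.0132 and an adjusted p of 0.738. For cell division the authors' deposited table gives 8 genes (2.41% against 0.903%), 2.67-fold, with p = 0.031 and an adjusted p of 1. CDK1, cks2, NUSAP1 and TTK were in both rows.

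The cell division row lies wholly inside the cell cycle row, since all 8 of its genes are among the 11. Its other 4 genes were PPP1CB, a catalytic subunit of protein phosphatase 1, mapre1b, a protein of growing microtubule tips, and the spindle genes CCSAP and SPECC1L. The cell cycle row added terfa, a telomere-binding protein, spina, a spindlin, and PRKCD, a protein kinase C. The spindle row shared 4 genes with the cell division row, namely NUSAP1, TTK, CCSAP and SPECC1L, which are 57.1% of the former and 50% of the latter. These rows are therefore not separate evidence of each other.

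A pair of further rows in module 6 fit the keywords without any of the 10 genes. In the authors' deposited table, mitotic cell cycle held 5 genes (3.41-fold, p = 0.059, adjusted p of 1): the tubulins TUBG1, tuba8l2 and tuba5, cltca and zgc:55461. It shared 0 genes with the cell division row. The row on protein localization to telomeres held TNKS and terfa (24.6-fold from 2 genes, p = 0.0786 and adjusted p of 1 in the authors' deposited table). Over its 5 keyword rows, module 6 listed 18 distinct genes, 4 of them from the mitotic set. The members cenph and cdca3 were in none of the 5.

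**Figure D3:**
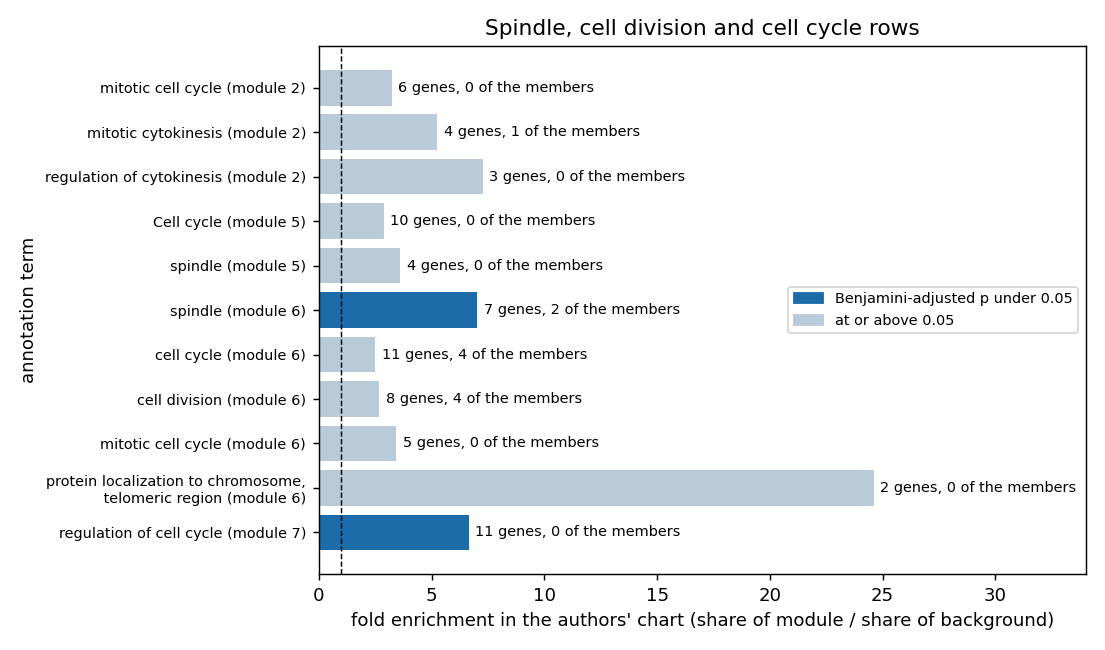
Fold enrichment in the authors' charts (x axis, linear, dashed line at 1) of the 11 rows whose term names the spindle, mitosis, cytokinesis, chromosomes or the cell cycle (y axis, with module), with the number of genes and of the 10 mitotic genes beside each bar. Dark bars, at a Benjamini-adjusted p under 0.05, are spindle in module 6 and regulation of cell cycle in module 7.

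Module 2 had 3 keyword rows, 2 of them on cytokinesis. The authors' deposited table lists mitotic cytokinesis with 4 of 421 genes (0.95% against 0.182%), 5.23-fold, p = 0.0403 and an adjusted p of 1. Beside anln they were ROCK1, a kinase that activates myosin in the contractile ring, map9, a microtubule-associated protein, and SNX9, a sorting nexin that bends membranes. The row mitotic cell cycle of that module held 6 genes (3.23-fold, p = 0.0384 and adjusted p of 1 in the authors' deposited table). They were the tubulins tuba8l4 and tuba2, the phosphatase CDC14B, ewsr1b, map9 and SNX9, without anln. Regulation of cytokinesis held BIRC6, IKBKB and rab11fip3 (7.26-fold, p = 0.063 and adjusted p of 1 in the authors' deposited table).

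In module 5 the keyword rows did not include SMC4. The KEGG row Cell cycle held 10 of 156 genes (6.41% against 2.23%), 2.87-fold, with p = 0.00769 and an adjusted p of 0.094 in the authors' deposited table. Among them were the cohesin genes SMC1A and STAG2, the replication clamp PCNA, RBL1 of the retinoblastoma family and the phosphatase CDC14A. The 14-3-3 genes ywhaqb, ywhaz and YWHAG, which bind phosphorylated proteins, with tgfb5 and smad10a of TGF-beta signalling made up the rest. SMC4 thus shared its module with subunits of cohesin, the ring related to condensin that holds sister chromatids together. The symbols SMC1A and STAG2 each also stood on a second identifier, in module 1. The spindle row of module 5 held HSPB1, KBTBD8, CLTC and dvl2 (3.62-fold, p = 0.0982 and adjusted p of 1 in the authors' deposited table). The same term thus had 7 genes in module 6 and 4 in module 5, and the difference was not tested.

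Module 7, with 53.5% of its rows called, had the other called keyword row, regulation of cell cycle, with 11 genes (6.64-fold, adjusted p = 0.000213 in the authors' deposited table). It held no member of the mitotic set. Genes named as ribosomal proteins were among them, such as RPS15A, RPS7, RPL7 and RPL23A. CCNG1 and CCNI are cyclins outside the CDK1 partnership, and TSC1 restrains growth signalling. Modules 1, 3, 4 and 8 listed no row with these keywords.

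CDK1 and TTK were each in 13 rows and shared 11 of them, of 15 rows holding either (0.733). The shared rows comprised nucleus, cell cycle, cell division and 8 on nucleotide binding, kinase activity and phosphorylation. In the authors' deposited table, kinase activity held 28 genes of module 6 (2.52-fold, adjusted p = 0.00345), and nucleotide binding held 61 (2.32-fold, adjusted p = 3.13e-07). The authors' deposited table further gives ATP binding 53 genes (1.81-fold, adjusted p = 0.00345) and phosphorylation 28 (2.39-fold, adjusted p = 0.0397). CDK1 and TTK are 2 among the many genes of these rows, whose terms do not name mitosis.

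The single row of bub1 was protein kinase activity in module 4, with 18 genes, 1.52-fold and p = 0.0864 in the authors' deposited table (adjusted p of 1). The same term in module 6 held 23 genes with CDK1 and TTK, 2.04-fold and p = 0.00214 (adjusted p = 0.0733) in the authors' deposited table. All 3 mitotic kinases were thus annotated to the same term in different charts, and it was called in neither.

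The nucleus row held CDK1, NUSAP1, TTK and cenph in module 6 and SMC4 in module 5. In the authors' deposited table it had 131 genes and 1.67-fold in module 6 (adjusted p = 1.71e-08). For module 5 the authors' deposited table gives 108 genes and 1.24-fold (p = 0.00774, adjusted p = 0.338). It was the only row of cenph and the only row of SMC4.

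Beyond mitosis, CDK1 was in 2 KEGG rows of module 6. Gap junction held it with the tubulins tuba8l2 and tuba5, the G protein subunits gna11b and gnaia, ADCY5, PRKG1 and zgc:55461 (8 genes, 3.6-fold, p = 0.00639, adjusted p = 0.107 in the authors' deposited table). Cellular senescence held it with genes such as akt2 and foxo3b of growth signalling, TGFBR1 and PPP1CB (8 genes, 2.36-fold, p = 0.0511, adjusted p = 0.378 in the authors' deposited table). The third row of cks2 was the SCF ubiquitin ligase complex with FBXL2, FBXL5 and CUL5 (4 genes, 3.62-fold, p = 0.0981, adjusted p of 1 in the authors' deposited table). In mammals, Cks1, a relative of Cks2, is known to assist an SCF ligase in the turnover of a CDK inhibitor. No such role of cks2 was tested here. NUSAP1 was also in the called row cytoplasm (112 genes, 1.58-fold, adjusted p = 1.45e-05 in the authors' deposited table). The authors' deposited table further lists it, uncalled, under DNA binding (41 genes, 1.7-fold, adjusted p = 0.0529) and cytoskeleton (19 genes, 1.79-fold, adjusted p = 0.741). Microtubule cytoskeleton organization (6 genes, 3.07-fold, p = 0.0462) and microtubule (8 genes, 2.22-fold, p = 0.0704) each have an adjusted p of 1 in the authors' deposited table.

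The number of rows per gene separated the 6 members in module 6 from each other. A gene of that module was in a median of 2 rows. CDK1 and TTK, with 13 rows, belonged to the 9 of 438 genes in at least 13. NUSAP1, with 9 rows, was among the 43 genes in at least 9. The other members were in 3 rows (cks2), 1 row (cenph) and no row (cdca3). The number counts listed rows alone and is no measure of a gene's level in the cells.

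**Figure D4:**
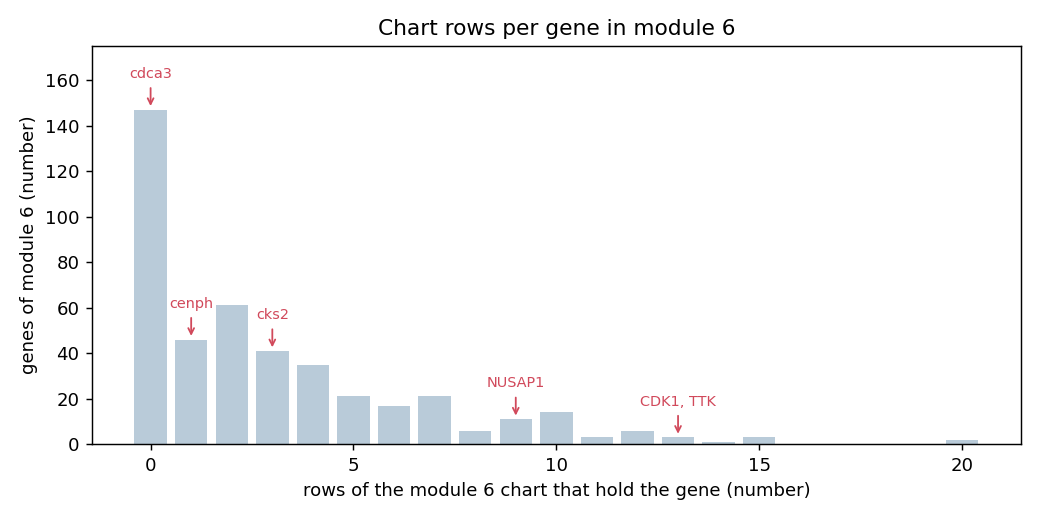
Number of genes of module 6 (y axis, linear) by the number of rows of its chart that hold them (x axis), with arrows at the mitotic genes. The members range from cdca3, in the bar of 147 genes in no row, to CDK1 and TTK with 13 rows.

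The genes most like each member in annotation were sought within its module as rows shared over rows holding either. After TTK, CDK1 was nearest to PRKG1 and STK35, both protein kinases (0.692 each, 9 rows shared). TTK was nearest to PRKCD (0.786, 11 rows shared), CDK1 and the stress kinase MAP3K5 (0.692, tied with a further gene). NUSAP1 was nearest to CCSAP (0.6), mapre1b (0.556) and SPECC1L (0.455), all 3 from the cell division row. The nearest gene to cks2 was mapre1b (0.333, 2 rows shared). Anillin shared its row with map9 (0.5), SNX9 (0.2) and ROCK1 (0.0714) only. For cenph, SMC4 and bub1 the measure rests on a single row and tied over 14, 15 and 6 genes, so no gene stood out.

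A wider set of mitotic genes was looked up in 6 lists by role, chosen with earlier results of these data known. Its symbols in the name table numbered 222, of which 33 (14.9%) lay in a module, against 14.4% of all 24693 symbols there. Without the 10 members 23 of 212 (10.8%) did. By role, members included, 6 of 32 entry symbols (18.8%), 9 of 46 spindle symbols (19.6%) and 4 of 45 kinetochore symbols (8.89%) were in a module. The members were chosen with their modules known, which raises these shares. Of the entry symbols in a module, only PLK3 and LIN9 were not members, and of the kinetochore symbols only skap1 was not. Chromosome structure had 4 of 30 (13.3%) and cytokinesis 6 of 45 (13.3%), with the members SMC4 and anln among them. Anaphase, without a member, had 4 of 25 (16%).

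Many partners of the members were in no module, as were most symbols of the name table, of which 14.4% lay in a module. Among entry genes these were the cyclins ccnb2 and ccna2, cks1b, the kinases plk1 and aurka, wee1 and the transcription factor foxm1. Among kinetochore genes they were bub1bb, bub3, mad2l1 and knl1, the partners of bub1 and TTK in the checkpoint, and ndc80 and nuf2, which bind microtubules. The condensin genes smc2, ncapd2, ncapg and ncaph, whose products form a complex with SMC4, were in none either. Nor were the cytokinesis genes ect2, racgap1, kif23 and aurkb. The steps that put a gene in a module or in none were not given in the sources used here.

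These symbols stood on 34 identifiers in the modules. Module 6 held 10 of the 34, module 2 held 7, module 5 held 6 and module 1 held 5. Module 4 held 3, module 7 held 2, and module 3 had CCNB1 alone. Without the members, 4 of 24 were in module 6 (16.7%, against 9.84% of all module genes). Module 2 held 6 (25%, against 13.5%), module 5 held 5 (20.8%, against 11.1%), and module 1 also held 5 (20.8%, against 34.7%). The shares in modules 2, 5 and 6 were each above that of all module genes. They rest on few genes, from lists chosen with earlier results of these data known. The differences were not tested and are a description only. With symbols also matched without a final a or b, module 4 had 5 of 36 (13.9%, against 10.7%). The 5 include skap1, which is no kinetochore protein. No excess is claimed for module 4 or for any other module. By exact matching, the 4 in module 6 were mapre1b, MZT1 and TUBG1 of the spindle, with SEPTIN6, a septin of the kind that anillin recruits. Matching also without a final a or b, members included, gave 46 identifiers, 12 of them in module 6. It added STMN1 of the spindle list and BIRC5 of the cytokinesis list there, and a second STMN1 identifier in module 2.

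Spindle genes elsewhere were CLASP2 and map9 in module 2, kansl1a and tubb4b in module 5, and RAN, the GTPase that guides spindle assembly, in module 7. Module 1 held the kinase PLK3, the cohesin genes PDS5A and SMC1A, PPP2R5A and VPS4A, which acts in abscission. Further entries were mki67, LIN9, CDC14B and ROCK1 in module 2, chmp4ba in module 4, and ube2d1b and pdcd6ip in module 5. ANAPC13, a subunit of the anaphase-promoting complex, was in module 7. The list for kinetochores also matched skap1 in module 4, the name of an immune signalling adaptor and no kinetochore protein, so bub1 had no kinetochore companion there. The counts of the wider list and of the kinetochore role still include skap1.

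**Figure D5:**
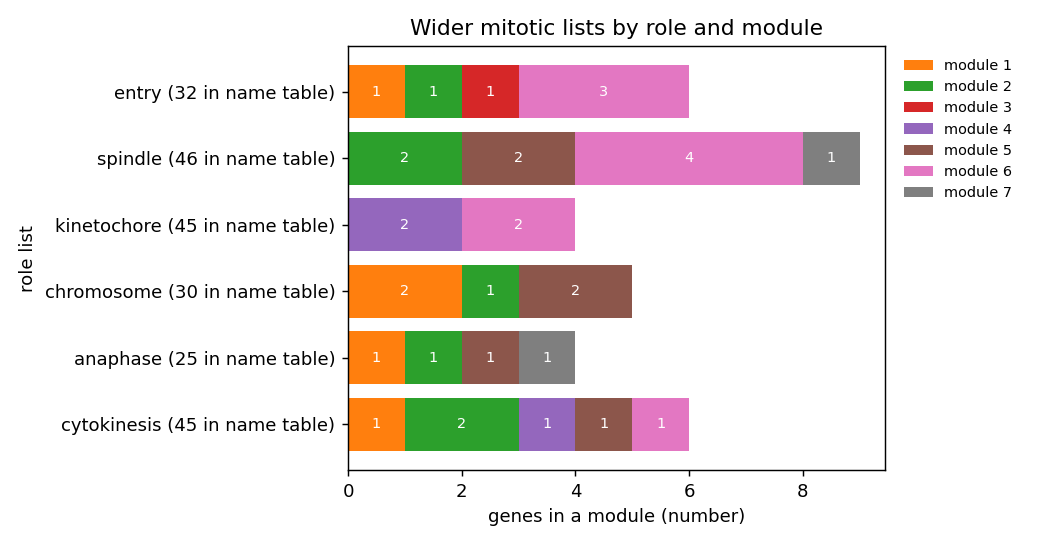
Number of genes in a module (x axis, linear) for each of 6 role lists (y axis, with the symbols of the list found in the name table), coloured by module. Module 6 holds 3 entry, 4 spindle and 2 kinetochore genes, members included, and no gene of the chromosome or anaphase lists.

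Genes of DNA replication, the stage before mitosis, were in a module for 5 of 68 symbols (7.35%), against 14.4% of all symbols of the name table. The 5, which are few, lay in modules 5 and 6 alone. These modules hold 11.1% and 9.84% of all module genes. PCNA, RBL1 and RRM2, a subunit of ribonucleotide reductase, shared module 5 with SMC4. Of these, RBL1 is on the replication list but belongs to the retinoblastoma family. GINS4 of the replicative helicase and POLA2 of DNA polymerase alpha shared module 6 with CDK1. Brakes of the cell cycle were in a module for 7 of 14 symbols (50%), against 14.4% of all symbols of the name table. None of the 7 was in module 6, but only 9.84% of all module genes lie there and 7 symbols are few. Module 2 held BTG1 and CCNG2, and module 4 held BTG2 and mdm2. The last is on the list of brakes but encodes the ligase that marks the brake p53 for destruction. The others were btg3 (module 1), tob1b (module 5) and CCNG1 (module 7). Both lists were chosen with earlier results of these data known, and the difference between them was not tested.

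CCNB1 was alone among the mitotic genes in module 3, where markers of other cell types lay. Of 9 endothelial markers in any module 7 were in module 3 (flt1, robo4, ERG, sox18, she, ramp2 and rasip1), and of 11 leukocyte markers 8 were (c1qa, c1qb, marco, spi1a, CORO1A, cyba, tnfa and nkl.2). Of 12 cardiomyocyte marker identifiers in a module, 0 were in module 3, and at its share of 8.02% few would lie there. Module 6 held 2 of them, MYBPC3 and myh6, while module 7 held 5, module 4 held 3, and modules 2 and 5 held 1 each. No marker of the endothelial, leukocyte or erythrocyte lists was in module 6, nor in modules 4, 5, 7 and 8. Module 3 was not the only module with such markers. Module 1 held the endothelial cdh5, the leukocyte cd74a, cd74b and ptprc, and the erythrocyte gata1a. Module 2, where anln lay, held the endothelial TIE1. The markers were chosen with these modules known, and their part in the place of CCNB1 was not tested.

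Neighbours on the chromosome were read by symbol from the RefSeq gene table of assembly GRCz12tu, for names only. Of the 20 nearest protein-coding neighbours of the 10 genes, 17 had a symbol of the name table and 4 of these lay in a module. One, pola2, next to cenph, was in the same module as its neighbour, module 6. The other neighbour of cenph, kgd4, was in module 7, and shc2 beside cks2 was in module 2.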

How the data were processed

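Plates of nppa:mCitrine-sorted cells, 3 wildtype and 4 hmga1a mutant, underlie the deposited modules, per the labels. Seurat is named without a role in the submitters' processing notes. For the making of the modules, as for aligner, build and cell filters, details were not given in the sources used. The module lists are identifiers, without values. In the charts, the counts of genes per term, the percent of module genes, the p-values (unadjusted, Bonferroni and Benjamini) and the fold enrichment, a ratio of shares, were computed by the authors, per the file headers. The genes listed differ in number from the count in 35 of 834 rows, none of them a keyword row. The column of false discovery rates, with damaged number formats, was left out.

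Symbols came from a name table of 29201 genes, which names 3651 of the 4449 module genes (82.1%), many in human style, and were matched exactly, ignoring case. Rows were kept by keyword, and lists counted, with Python 3.11.15 and pandas 2.3.3, with no test, since 0 plates carry values. Alternatives changed the matching, the keywords, the p threshold, the list and the identifiers used. Named were the 10 members, the genes of keyword rows, the wider list genes in a module and up to 3 genes nearest each member. Partners in no module were named after their places were seen. Members and lists were chosen with earlier results of these data known. Promoter and protein sequences were not analysed here.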

Additional observations from a re-analysis of the deposited data

How the results depend on the processing

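Of 17 alternatives computed, 8 left the count within 1.5 times and 9 moved it. Matching symbols without a final a or b, or by RefSeq synonyms (chosen after seeing the data), left 6 of 10 members in module 6. Where each list was ended at the end of its first ascending run of identifiers, 3 of 10 members were left, CDK1 and cks2 (2 in module 6) and bub1. The wider list then had 21 genes, 5 in module 6. With the full module lists but without the members, the wider list had 4 in module 6, against 10 with them. The keyword rows numbered 7 with narrower keywords, 7 at an unadjusted p under 0.05 and 2 at an adjusted p under 0.05, against 11. Rows holding a member numbered 7 at an adjusted p under 0.05, against 24. Why the lists hold more than 1 run is not known. The match through RefSeq identifiers was not run, because that table pairs no Ensembl identifiers, and the strand alternative was not run, because no promoter sequence was searched. No paired analysis was possible because the result comes from no test and no column carries a plate.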
